A study of Mus musculus with 32 samples.

Results

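The 10 immediate early genes Fos, Fosb, Jun, Junb, Egr1, Ier2, Ier3, Btg2, Atf3 and Klf6 were followed in mouse embryonic stem cells and in the retinal organoids grown from them. They were chosen by symbol, and each matched 1 of the 55492 rows of the deposited expression table. Polyadenylated RNA was sequenced from 4 kinds of culture at days 0, 2, 4 and 6, with 2 libraries in each of 16 groups. WT was the Rx:GFP line. KO was the Mettl3 KO line. The METTL3 protein is the methyltransferase that places N6-methyladenosine on RNA. The other cultures, called fusion below, carried the construct named WT MTL3-GRBD OE in the Mettl3 KO line, either without dexamethasone (Dex, a synthetic glucocorticoid) or with 10 µM Dex. The series' design text places the fusion protein in the cytosol without Dex and in the nucleus with it. Both fusion groups therefore share the Mettl3 KO background, and no group received Dex without carrying the fusion. Day 0 samples were stem cells, and AGN at 0.1 µM is listed for every line at days 2, 4 and 6. Some day 0 samples are labelled Dex treated although the treatment protocol lists 2, 4 and 6 days of Dex, and the labels were followed. The labels do not say whether the KO or fusion lines were single clones, and no acute stimulus is named in them.

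Immediate early genes are transcribed within minutes of a growth factor, serum or stress signal, from factors already present in the cell, and most of their mRNAs are short-lived. Fos, Fosb, Jun and Junb encode subunits of AP-1, a dimeric transcription factor. Atf3 encodes a related basic leucine zipper protein that is also a target of the integrated stress response, and Egr1 and Klf6 encode zinc finger transcription factors. Ier2 and Ier3 encode small early response proteins, and Btg2 encodes an antiproliferative protein that recruits the mRNA deadenylation machinery.

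Promoter stretches are shown because classical early gene promoters hold cyclic AMP response elements, whose core motif is TGACG, and because members with and without one can then be set beside their levels. RefSeq promoter entries (GRCm38.p6) were found for 8 of the 10 genes, the exceptions being Egr1 and Ier2. In the 250 bases before the start, TGACG on either strand occurred in 5 of these 8 (Fos, Fosb, Junb, Btg2 and Atf3), against 17.8% of 32851 promoters. The AP-1 site TGANTCA occurred in 0 of 8, against 6.75% of promoters, and the CArG box, the site of serum response factor, in 0 of 8, against 1.47%. Matches are letters in a window and not measured binding. Sites further upstream, and any in Egr1 or Ier2, were not searched, so 0 of 8 does not mean that these genes lack the site. The capitals below mark TGACG or its reverse complement, each sequence is on the gene's own strand, and positions count from the RefSeq start. The Fos stretch is chr12:85473750-85473869 on the plus strand, bases -140 to -21. The Fosb stretch is chr7:19310066-19310185 and the Junb stretch is chr8:84978769-84978888, both on the minus strand and both bases -140 to -21. The Btg2 stretch is chr1:134079276-134079355 on the minus strand, bases -200 to -121, where a TGACG and its reverse complement overlap.
Fos: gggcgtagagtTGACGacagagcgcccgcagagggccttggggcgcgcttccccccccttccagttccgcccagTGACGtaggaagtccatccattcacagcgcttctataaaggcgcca
Fosb: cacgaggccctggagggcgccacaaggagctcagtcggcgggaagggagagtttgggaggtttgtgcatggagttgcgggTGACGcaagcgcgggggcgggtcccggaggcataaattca
Junb: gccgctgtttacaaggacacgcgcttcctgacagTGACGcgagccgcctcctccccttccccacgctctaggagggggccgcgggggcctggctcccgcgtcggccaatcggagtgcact
Btg2: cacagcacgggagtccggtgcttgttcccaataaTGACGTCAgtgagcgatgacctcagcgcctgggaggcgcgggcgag

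Values are FPKM, fragments divided by transcript length and by library size, so levels are per length and can be set beside each other between genes. Log2 changes are differences of log2(FPKM + 1), which understates the change of genes near 0. A gene was called at a limma adjusted p under 0.05 (Benjamini-Hochberg over 16276 tested genes, two-sided). All 10 genes passed the filter on low values, but Fosb passed only through the fusion with Dex at day 0, where it had to differ, so its values there are a description. Depth was estimated at 26.72 to 51.88 M fragments (M, mega) per library. The labels' protocols describe 2 rounds of library preparation and sequencing, and leave unsaid if the duplicates came from different cultures, so the p-values measure the spread between these libraries, which may be technical. The WT day 0 duplicates stood apart, with differences 11.7 times those of counting noise, against a median of 2.02 over the groups. Mettl3 mRNA ran from 32.51 to 41.21 FPKM over the 8 WT libraries, from 34.88 to 43.83 in KO, from 45.16 to 71.78 in the fusion without Dex and from 44.46 to 75.06 with Dex. Gene-level values do not show the knockout, and KO below means the libraries so labelled. Summed pluripotency markers (6 genes) fell from between 2599.1 and 3023.05 FPKM at day 0 to between 200.89 and 306.35 at day 6. Among 6 eye field and neural markers, the eye field genes Six6, Six3 and Lhx2 were high at day 6 in WT (means of 69.665, 131.865 and 233.995 FPKM) and low in KO (0.02, 0.635 and 4.97 FPKM), so KO at day 6 lacks these defining markers of the labelled tissue or holds them at low levels. Pax6, at 110.11 FPKM in WT and 111.7 in KO, was at a like level in both.

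The genes spanned a wide range of levels. Ier2 (ENSMUSG00000053560; GRCm38 chromosome 8, 84661331 to 84662852, minus strand) was the most abundant, with a median of 82.22 FPKM over the 32 libraries and a range from 50.51 to 320.66 FPKM. Fosb (ENSMUSG00000003545; chromosome 7, 19302696 to 19310051, minus strand) was the least abundant, with a median of 0.305 FPKM and a range from 0.03 to 1.14 FPKM. Fos (ENSMUSG00000021250; chromosome 12, 85473890 to 85477273, plus strand) had a median of 1.99 FPKM and Atf3 (ENSMUSG00000026628; chromosome 1, 191170296 to 191218039, minus strand) of 1.65 FPKM. At these levels Fos rested on 9.6 to 302.0 estimated fragments per library and Fosb on 3.7 to 141.4. Medians of the other members lay between 6.335 FPKM for Egr1 (ENSMUSG00000038418; chromosome 18, 34859823 to 34864984, plus strand) and 14.96 FPKM for Ier3 (ENSMUSG00000003541; chromosome 17, 35821684 to 35822923, plus strand). Between them were Jun (ENSMUSG00000052684; chromosome 4, 95049034 to 95052222, minus strand), Junb (ENSMUSG00000052837; chromosome 8, 84974484 to 84978718, minus strand), Btg2 (ENSMUSG00000020423; chromosome 1, 134075170 to 134079120, minus strand) and Klf6 (ENSMUSG00000000078; chromosome 13, 5861482 to 5870394, plus strand). These positions come from GENCODE M21. Where the authors' counting ignored strand, 173 of 2301 exon bases of Junb share reads with Prdx2, at 235.24 to 686.89 FPKM in group means, and 232 of 3189 exon bases of Jun share reads with Junos, at 0.03 to 0.62 FPKM. Whether strand was used is not given in the sources used here, so Junb and Jun values carry that uncertainty.

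The 16 group means of each gene were ordered, and some genes were highest in the stem cells of the fusion line. Fos, Junb and Egr1 had their highest mean in the fusion with Dex at day 0, at 4.56, 81.2 and 27.4 FPKM. Ier2 had its highest in the fusion without Dex at day 0, at 315.06 FPKM. Fosb was also highest with Dex at day 0, at 1.125 FPKM. It passed the filter only through that group, so its place there was fixed and is a description. The lowest means of Fos, Fosb, Jun, Ier3 and Btg2 were those of KO stem cells, at 0.23, 0.035, 1.45, 3.89 and 5.55 FPKM. The highest mean was 19.8 times the lowest for Fos, 18.5 times for Junb, 15.0 times for Jun, 14.8 times for Egr1 and 14.6 times for Atf3. It was 32.1 times for Fosb, whose lowest library held 3.7 estimated fragments. It was 10.6 times for Ier3, 6.22 times for Ier2, 5.53 times for Klf6 and 4.95 times for Btg2. Not all neighbours in these orders were apart. Of 15 neighbouring pairs of groups, libraries overlapped in 12 for Fosb, in 9 for Atf3, in 6 for Fos and Junb, in 5 for Egr1, in 3 for Ier2, Ier3 and Btg2, and in 2 for Jun and Klf6.

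**Figure D1:**
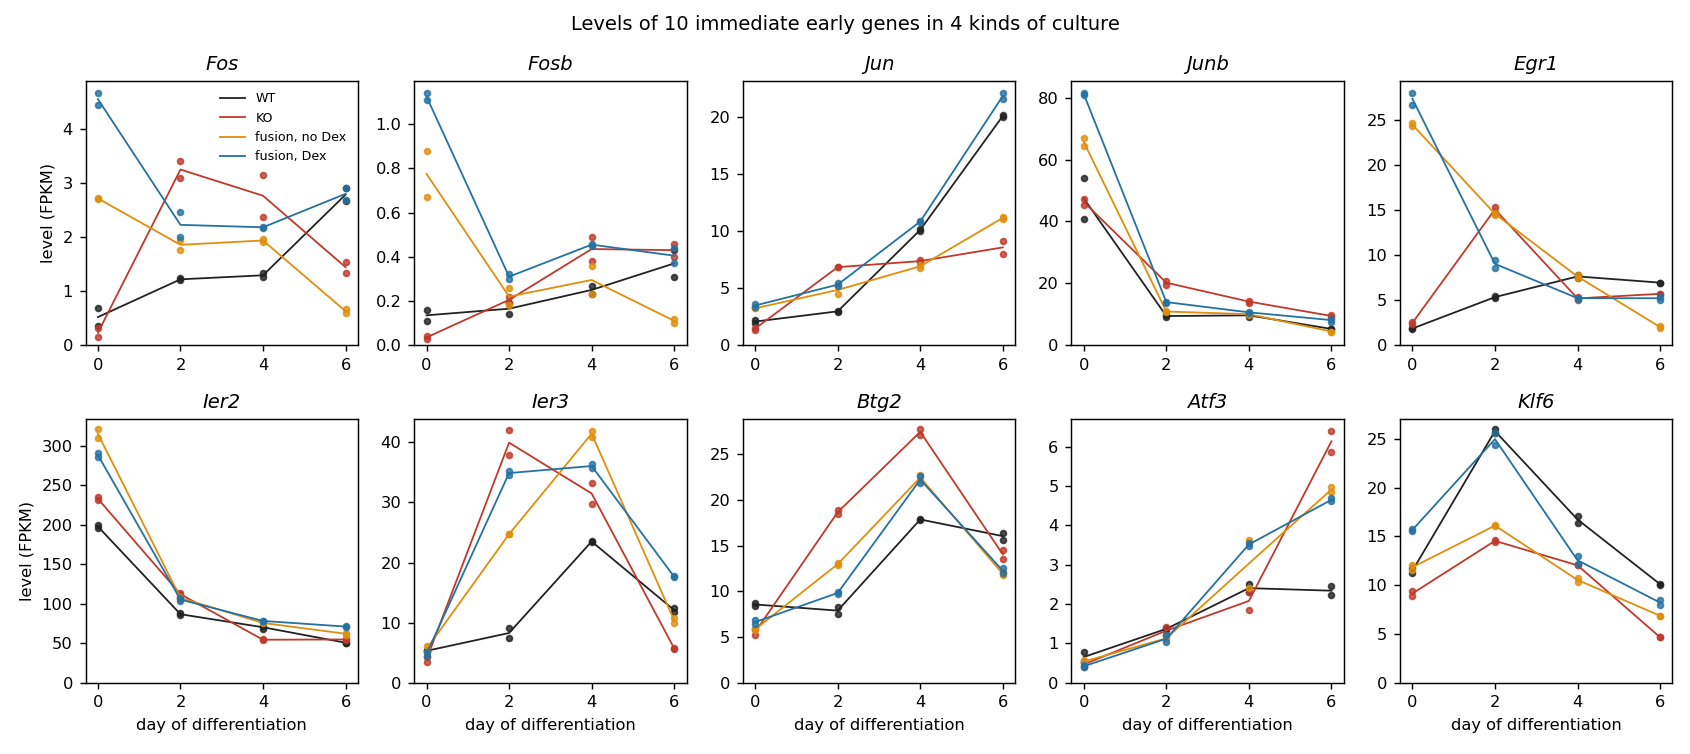
Level of each gene by day (x axis, days) in FPKM (y axis, linear, from 0, with its own range for each gene) in the 4 kinds of culture. Points are single libraries and lines join the means of 2 libraries. Egr1 and Fos separate the fusion stem cells at day 0 from WT and KO, Junb and Ier2 drop after day 0 in every line, and Jun climbs to day 6.

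Between day 0 and day 6, all 10 genes were called in WT, KO and the fusion without Dex, and with Dex all 9 genes other than Fosb, whose value there is a description, where 78.1% of all tested genes were called in WT (43.6% higher, 34.5% lower), 80.4% in KO (45.0% and 35.4%), 81.9% in the fusion without Dex (48.0% and 33.9%) and 80.4% with Dex (46.4% and 34.0%). In most genes the direction was shared by all 4 lines. Jun, Ier3, Btg2 and Atf3 were higher at day 6 in all 4, and Junb, Ier2 and Klf6 were lower in all 4. Fos, Fosb and Egr1 were higher at day 6 in WT and KO and lower in both fusion groups, whose day 0 levels were high. Median-of-ratios rescaling lowered the all-gene median of this comparison by between 0.10 in KO and 0.19 in the fusion without Dex on the log2 scale, and none of these directions turned.

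Among the AP-1 genes, Jun and Junb ran in opposite directions in WT. Jun stood at 2.23 and 1.90 FPKM in the 2 WT libraries at day 0, 2.98 and 2.94 at day 2, 10.02 and 10.17 at day 4, and 20.18 and 19.96 at day 6. Each day lay above the one before, without overlap. The day 6 mean was 9.72 times that of day 0, a log2 change of 2.78 ± 0.06 (limma SE, adjusted p = 5.46e-19). Junb stood at 40.81 and 54.10 FPKM at day 0, 9.88 and 8.94 at day 2, 10.08 and 9.20 at day 4, and 5.30 and 5.18 at day 6 in WT. The day 0 libraries were far above all later ones, although they differed most from each other. The log2 change from day 0 to day 6 was -2.94 ± 0.09 (limma SE, adjusted p = 6.68e-17) in WT, -2.18 in KO, -3.63 in the fusion without Dex and -3.18 with Dex. Fos in WT stood at 0.68 and 0.36 FPKM at day 0, 1.20 and 1.24 at day 2, 1.33 and 1.26 at day 4, and 2.67 and 2.91 at day 6. It was lowest in stem cells and highest at day 6. The log2 change over the course was 1.33 ± 0.10 (limma SE, adjusted p = 2.7e-10).

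Atf3, the stress-linked member, was lowest in stem cells and rose in all 4 lines. In WT it stood at 0.54 and 0.77 FPKM at day 0 and at 2.23 and 2.45 at day 6. In KO it stood at 0.39 and 0.54 FPKM at day 0 and at 5.86 and 6.41 at day 6, the highest values of this gene in the series. The log2 change from day 0 to day 6 was 1.02 ± 0.11 (limma SE, adjusted p = 3.67e-08) in WT and 2.28 ± 0.11 (limma SE, adjusted p = 9.95e-14) in KO. It was 1.94 and 1.99 in the fusion without and with Dex.

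Ier2 and Ier3 parted in their courses. Ier2 fell from 195.82 and 199.61 FPKM at day 0 to 50.51 and 50.84 at day 6 in WT, a log2 change of -1.94 ± 0.03 (limma SE, adjusted p = 1.8e-21). The largest step was the first, between day 0 and day 2, in all 4 lines (-1.18 in WT, -1.05 in KO, -1.54 and -1.44 in the fusion without and with Dex). Ier3 had a peak within the course. In WT it stood at 5.39 and 5.23 FPKM at day 0, 7.51 and 9.05 at day 2, 23.37 and 23.62 at day 4, and 12.37 and 11.80 at day 6. The peak came at day 4 in WT and in the fusion without Dex (40.90 and 41.94 FPKM) and at day 2 in KO (41.99 and 37.87 FPKM). With Dex, days 2 and 4 were close, at 34.59 and 35.16 and at 35.74 and 36.35 FPKM, and the step between them was not called.

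Btg2 peaked at day 4 in all 4 lines, with 17.79 and 17.95 FPKM in WT, 27.77 and 27.14 in KO, 22.23 and 22.68 in the fusion without Dex and 22.64 and 21.83 with Dex. Klf6 peaked earlier, at day 2, in all 4. Its day 2 libraries read 25.58 and 25.99 FPKM in WT, 14.43 and 14.65 in KO, 16.08 and 16.13 in the fusion without Dex, and 24.36 and 25.56 with Dex. WT and the fusion with Dex were thus the high pair at the peak. By day 6 Klf6 was below its day 0 level in every line, by -0.17 in WT and by between -0.86 and -0.71 in the others on the log2 scale.

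KO cultures were first compared with WT, day by day, for the level of each early gene. The largest median shift came at day 2, where Fos, Jun, Junb, Egr1, Ier2, Ier3 and Btg2 were higher in KO and Klf6 was lower. These were 8 of 10 genes called, in a comparison in which 58.9% of all tested genes were called (37.5% higher, 21.3% lower). The median log2 change was 0.96 over the 10 genes and 0.09 over all tested genes. At day 0, 7 of 10 were called (2 higher, 5 lower) beside 48.2% of all genes (18.4% higher, 29.8% lower). At day 4, 9 were called (5 higher, 4 lower) beside 60.5% (36.5% and 24.0%). At day 6 again 9 were called (3 higher, 6 lower) beside 65.1% (30.9% and 34.2%). A fit of the WT and KO day 0 libraries alone, with fewer degrees of freedom, left 2 of the 7 day 0 calls. The share of all genes called is not given here for this or later fits of 2 groups alone.

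At day 2, Ier3 stood at 7.51 and 9.05 FPKM in WT and at 41.99 and 37.87 in KO. All KO libraries were above all WT libraries. The KO mean was 4.82 times the WT mean, a log2 change of 2.14 ± 0.09 (limma SE, adjusted p = 1.8e-13). Egr1 stood at 5.24 and 5.45 FPKM in WT and at 15.42 and 14.79 in KO. The groups were again apart, with a ratio of means of 2.83 and a log2 change of 1.34 ± 0.05 (limma SE, adjusted p = 9.69e-14). Btg2 stood at 7.48 and 8.31 FPKM in WT and at 18.48 and 18.85 in KO. Its KO mean was 2.36 times that of WT, a log2 change of 1.15 ± 0.05 (limma SE, adjusted p = 2.07e-13). Of the AP-1 genes, Jun, Fos and Junb were higher in KO. Jun stood at 2.98 and 2.94 FPKM in WT and 6.81 and 6.85 in KO, and Fos at 1.20 and 1.24 in WT and 3.09 and 3.42 in KO. The log2 changes were 0.98 ± 0.06 for Jun (limma SE, adjusted p = 4.72e-11) and 0.94 ± 0.10 for Fos (limma SE, adjusted p = 1.4e-07). Fosb and Atf3, both low at this day, had overlapping libraries and were not called.

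By day 6 the order of the lines had turned for several members. Jun stood at 20.18 and 19.96 FPKM in WT and at 9.10 and 8.02 in KO, so that KO was lower without overlap. The KO mean was 0.427 of the WT mean, a log2 change of -1.14 ± 0.06 (limma SE, adjusted p = 2.03e-12). Ier3 was also lower in KO, at 5.59 and 5.86 FPKM against 12.37 and 11.80 in WT, with a log2 change of -0.96 ± 0.09 (limma SE, adjusted p = 9.74e-09). Fos was lower as well, at 1.55 and 1.34 FPKM against 2.67 and 2.91, with a log2 change of -0.63 ± 0.10 (limma SE, adjusted p = 1.53e-05). Atf3 went the other way. It stood at 2.23 and 2.45 FPKM in WT and at 5.86 and 6.41 in KO, a ratio of 2.62 and a log2 change of 1.09 ± 0.11 (limma SE, adjusted p = 2.31e-08).

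Klf6 was the only member lower in KO at all 4 days. At day 6 it stood at 10.05 and 10.15 FPKM in WT and at 4.66 and 4.67 in KO, the lowest libraries of the gene. The log2 changes over the days were -0.30, -0.79, -0.44 and -0.97, and the last had an SE of 0.04 and a limma adjusted p of 2.94e-14.

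Junb and Ier2 lie on chromosome 8, whose 856 other tested genes were shifted in KO. Their median log2 change in KO against WT exceeded that of genes elsewhere by 0.05, 0.16, 0.28 and 0.40 over days 0 to 6. Junb stood at 9.88 and 8.94 FPKM in WT and at 20.86 and 19.51 in KO at day 2, and at 5.30 and 5.18 in WT and 9.10 and 9.77 in KO at day 6. KO was higher without overlap at both days, with log2 changes of 1.03 ± 0.09 (limma SE, adjusted p = 4.56e-09) and 0.74 ± 0.09 (limma SE, adjusted p = 2.67e-07). Ier2 differed by 0.37 at day 2, by -0.36 at day 4 and by 0.11 at day 6, each called. The part of the chromosome-wide shift in these values was not tested. Extraembryonic endoderm markers also separated the lines. Their summed level (5 genes) was 20.45 to 63.61 FPKM in WT libraries and 3.94 to 11.41 in KO libraries, with Gata6 and Sox7 under 0.05 FPKM in KO at day 6. Eye field markers parted from WT as well. At day 6 in KO against WT, 2 of 6 eye field and neural markers were higher and 3 lower (all genes, 30.9% and 34.2%). The log2 changes were -6.34 for Six3, -6.11 for Six6, -5.30 for Lhx2 and 3.71 for the neural gene Fabp7. Of 6 fibroblast markers 5 were higher and 1 lower at day 6, beside the same shares of all genes. Markers differed at day 2 too. The largest called change there was 2.22 for Fabp7 among eye field and neural markers and 1.04 for Nanog among pluripotency markers. It was 0.75 for Eomes among mesendoderm markers and -3.09 for Dab2 among extraembryonic endoderm markers. At day 6 the largest was -2.86 for Utf1 among pluripotency markers and -0.64 for Eomes among mesendoderm markers. The part of these marker differences in the early gene differences was not tested, and in bulk RNA fewer cells of a type and less RNA per cell cannot be told apart.

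**Figure D2:**
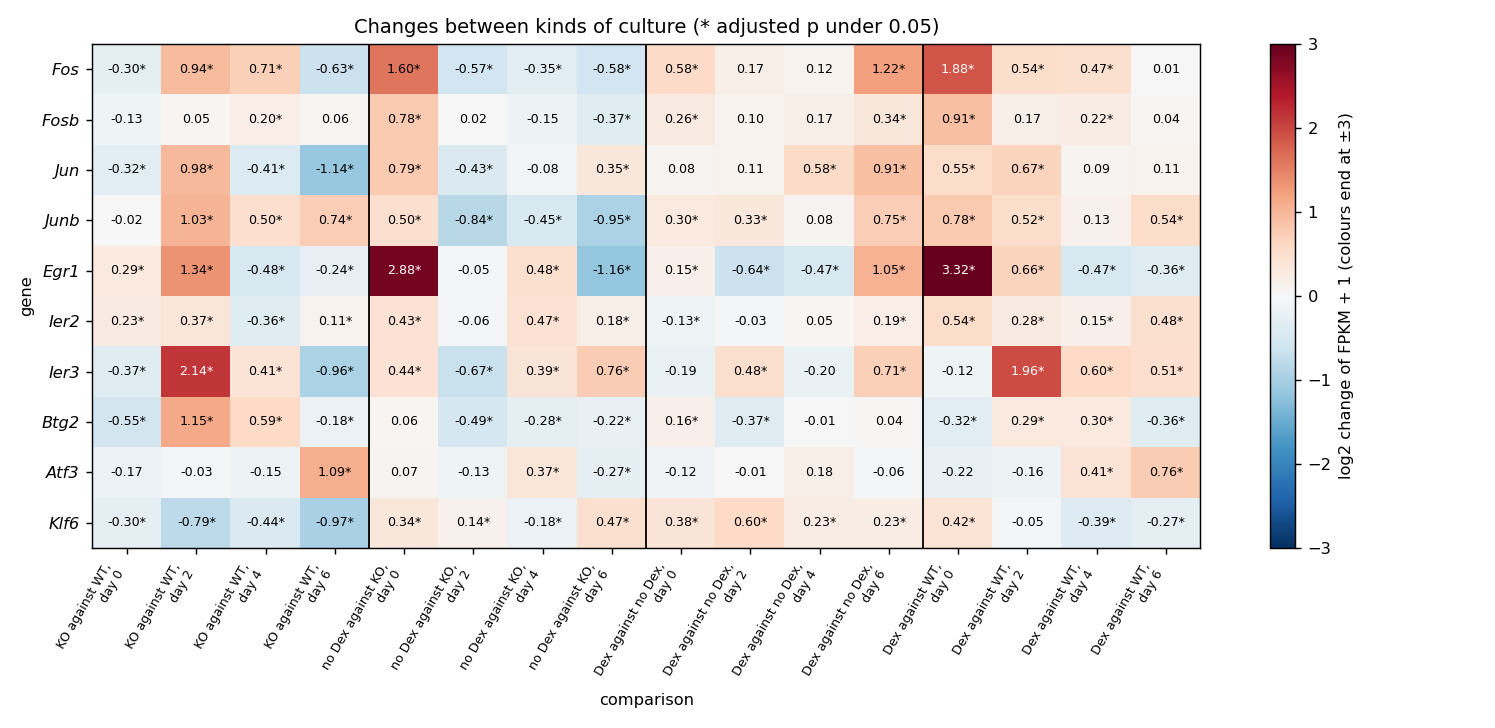
Log2 change of log2(FPKM + 1) for each gene (rows) in the 4 comparisons of lines at days 0, 2, 4 and 6 (columns), as the colour and the printed number, with asterisks at limma adjusted p under 0.05. The colour scale ends at 3, below the 3.32 of Egr1 in the fusion with Dex against WT at day 0.

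The fusion without Dex was then set against KO, its parent background. It shares the KO libraries with the comparison above, so opposite signs of the 2 are not independent. Stem cells showed the largest differences. At day 0, 8 of 10 genes were called and all 8 were higher in the fusion line, in a comparison in which 49.1% of tested genes were called, 19.3% higher and 29.8% lower. The median log2 change was 0.47 over the 10 genes and -0.03 over all tested genes. The 8 were Fos, Fosb, Jun, Junb, Egr1, Ier2, Ier3 and Klf6, and Btg2 and Atf3 were not called. Of the 5 genes with TGACG in the promoter window, Fos, Fosb and Junb were thus called and Btg2 and Atf3 were not. Jun, Ier3 and Klf6, which have a promoter entry without TGACG in the window, were all called. Ier3 was no longer called in a fit of these 2 groups alone.

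Egr1 stood at 2.56 and 2.40 FPKM in KO stem cells and at 24.69 and 24.38 in those of the fusion line. The fusion mean was 9.89 times the KO mean, and both KO libraries were far below. The log2 change was 2.88 ± 0.05 (limma SE, adjusted p = 7.71e-18). Fos stood at 0.15 and 0.31 FPKM in KO and at 2.71 and 2.73 in the fusion line, a ratio of means of 11.8 with no overlap. The log2 change of Fos was 1.60 ± 0.10 (limma SE, adjusted p = 1.6e-10). Jun stood at 1.37 and 1.53 FPKM in KO and at 3.21 and 3.24 in the fusion line. Jun was thus 2.22 times as high, a log2 change of 0.79 ± 0.06 (limma SE, adjusted p = 2.05e-09). Junb rose less, from 47.38 and 45.17 FPKM to 66.92 and 64.44, and Ier2 from 235.01 and 230.69 to 309.46 and 320.66. Their log2 changes were 0.50 and 0.43, while chromosome 8 genes as a whole differed from the rest by 0.01 here. Fosb read 0.03 and 0.04 FPKM in KO and 0.67 and 0.88 in the fusion line.

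WT stem cells were on the low side for Egr1 and Fos. The WT day 0 libraries read 1.94 and 1.76 FPKM for Egr1 and 0.68 and 0.36 for Fos. For Klf6 and Ier3 the WT libraries overlapped those of the fusion without Dex. Klf6 read 11.23 and 11.72 FPKM in WT and 11.59 and 12.08 in the fusion. Ier3 read 5.39 and 5.23 FPKM in WT and 5.11 and 6.14 in the fusion. Summed fibroblast markers (6 genes) were 0.37 to 0.62 FPKM in KO, 0.87 to 0.98 in the fusion without Dex and 1.83 to 1.90 with Dex at day 0, with Postn and Lum under 0.05 FPKM in all 3. Their part in the early gene values was not tested.

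At later days the fusion without Dex did not stay above KO. At day 2, 6 of 10 genes were called beside 37.0% of all genes (14.8% higher, 22.2% lower). Of the 6, Klf6 was higher and 5 were lower (Fos, Jun, Junb, Ier3 and Btg2), with Junb at 20.86 and 19.51 FPKM in KO and 10.67 and 11.07 in the fusion line. At day 4, 8 were called (4 higher, 4 lower) beside 26.7% (9.66% and 17.0%), with changes between -0.45 for Junb and 0.48 for Egr1. In a fit of these 2 groups alone 5 of the 8 remained past the threshold. At day 6 all 10 were called (4 higher, 6 lower) beside 49.0% (21.1% and 27.9%). Egr1 was then lower in the fusion line, at 2.16 and 1.87 FPKM against 5.71 and 5.72 in KO, a ratio of 0.353 and a log2 change of -1.16 ± 0.05 (limma SE, adjusted p = 1.44e-12). Junb was also lower, at 4.39 and 4.41 FPKM against 9.10 and 9.77, with a log2 change of -0.95 ± 0.09 (limma SE, adjusted p = 2.04e-08). Ier3 and Klf6 were higher, by 0.76 and 0.47. The Atf3 call at day 6 (-0.27) was lost without any 1 of the 4 libraries.

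Next, the effect of Dex was examined by setting the fusion with Dex against the fusion without it, the same line in the same background. At day 6, Fos, Fosb, Jun, Junb, Egr1, Ier2, Ier3 and Klf6 were higher with Dex, 8 of 10 genes called and 0 of them lower, where 42.7% of tested genes were called, 23.8% higher and 19.0% lower. The median log2 change was 0.53 over the 10 genes and 0.01 over all tested genes. Only Fos and Egr1 passed a log2 change of 1, as did 1.52% of all tested genes. Btg2 (0.04) and Atf3 (-0.06) were not called.

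Fos showed the largest change with Dex at day 6, from 0.67 and 0.59 FPKM without Dex to 2.92 and 2.69 with it. The groups were far apart, with a ratio of means of 4.45 and a log2 change of 1.22 ± 0.10 (limma SE, adjusted p = 9.75e-09). Egr1 went from 2.16 and 1.87 FPKM to 5.37 and 5.07, a ratio of 2.59. Its log2 change was 1.05 ± 0.05 (limma SE, adjusted p = 1.07e-11). Jun went from 11.25 and 11.04 FPKM to 22.09 and 21.54, a ratio of 1.96, with a log2 change of 0.91 ± 0.06 (limma SE, adjusted p = 4.02e-10). Junb went from 4.39 and 4.41 FPKM to 7.59 and 8.60, and Ier3 from 10.73 and 10.00 to 17.55 and 17.72. The log2 changes were 0.75 ± 0.09 for Junb (limma SE, adjusted p = 7.79e-07) and 0.71 ± 0.09 for Ier3 (limma SE, adjusted p = 1.98e-06). Klf6 and Ier2 rose by 0.23 and 0.19. The Klf6 call was lost in a fit of the 2 groups alone.

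Cell markers moved at day 6 too, in both directions within some lists, where 23.8% of all tested genes were called higher and 19.0% lower. Of the 6 eye field and neural markers 3 were higher with Dex and 1 lower. Lhx2 rose from 17.31 to 154.57 FPKM in group means, Six3 from 11.43 to 49.635 and Six6 from 0.01 to 6.395, with log2 changes of 3.09, 2.03 and 2.87. Fabp7 fell from 168.885 to 73.1 FPKM, a log2 change of -1.20. Extraembryonic endoderm markers had 4 of 5 higher and 0 lower, with summed levels of 8.48 to 8.66 FPKM without Dex and 10.85 to 11.48 with it. Sox17 differed by 1.62, Gata4 by 0.49, Gata6 by 0.47 and Sox7 by 0.20. Of 6 fibroblast markers 1 was higher and 4 lower, with summed levels of 11.49 to 11.97 FPKM without Dex and 8.81 to 9.54 with it. The part of these marker differences in the early gene values was not tested.

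Before day 6 the response to Dex was mixed. At day 0, 6 of the 9 genes other than Fosb were called (5 higher, 1 lower) beside 43.4% of all genes (27.3% higher, 16.1% lower). Fos read 2.71 and 2.73 FPKM without Dex and 4.67 and 4.45 with it, and Klf6 read 11.59 and 12.08 without and 15.58 and 15.75 with it. Both were higher with Dex, by 0.58 ± 0.10 (limma SE, adjusted p = 9.9e-05) and 0.38 ± 0.04 (limma SE, adjusted p = 1.8e-07). The other day 0 calls were between -0.13 and 0.30. With Fosb, which entered the test through this Dex group, the count was 7 of 10, and 4 of these calls were left in a fit of these groups alone or without the second no Dex library. At day 2, 5 were called (3 higher, 2 lower) beside 44.3% (12.7% and 31.5%). Klf6 was then higher with Dex by 0.60 and Egr1 lower by -0.64, at 9.52 and 8.57 FPKM against 14.70 and 14.51. At day 4, 3 were called (2 higher, 1 lower) beside 40.2% (18.3% and 21.9%), with Jun higher by 0.58, Klf6 higher by 0.23 and Egr1 lower by -0.47. Without the second no Dex library of day 4 the count was 5. Klf6 was the only member called higher with Dex at each of the 4 days, and the fits of days 4 and 6 alone did not keep its call.

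The difference between day 6 and day 0 was tested directly. For Dex against no Dex it was called in 7 of the 9 genes other than Fosb (6 larger at day 6, Klf6 smaller), beside 48.7% of all tested genes (22.7% and 25.9%). For KO against WT it was called in 8 of 10 (3 higher, 5 lower), beside 56.9% (31.1% and 25.8%).

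The last comparison set the fusion with Dex against WT, and shares libraries with the comparisons of KO with WT and of Dex with no Dex. At day 0, 7 of the 9 genes other than Fosb were called (6 higher, 1 lower) beside 49.8% of all genes (19.0% higher, 30.8% lower). Egr1 stood at 26.74 and 28.07 FPKM with Dex and at 1.94 and 1.76 in WT. The ratio was 14.8, with a log2 change of 3.32 ± 0.05 (limma SE, adjusted p = 5.69e-19), the largest on the log2(FPKM + 1) scale among members in these 4 comparisons of lines. The ratio of means was larger for Fosb in the fusion without Dex against KO at day 0, at 22.1. Fos followed, at 4.67 and 4.45 FPKM against 0.68 and 0.36, a ratio of 8.77 and a log2 change of 1.88 ± 0.10 (limma SE, adjusted p = 2.1e-11). At day 2, 7 were called, all higher than WT, beside 29.4% of all genes called (12.2% higher, 17.2% lower). Ier3 was furthest apart, at 34.59 and 35.16 FPKM against 7.51 and 9.05, a log2 change of 1.96 ± 0.09 (limma SE, adjusted p = 4.31e-12). At day 4, 8 were called (6 higher, 2 lower) beside 44.7% (25.7% and 19.1%), with changes between -0.47 for Egr1 and 0.60 for Ier3. At day 6, 7 were called (4 higher, 3 lower) beside 61.4% (29.2% and 32.2%).

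At day 6 the fusion with Dex lay near WT for some members and apart for others. Fos overlapped, at 2.92 and 2.69 FPKM with Dex and 2.67 and 2.91 in WT, a log2 difference of 0.01 ± 0.10 (limma SE, adjusted p = 0.977). Jun differed by 0.11 ± 0.06 (limma SE, adjusted p = 0.104) and was called after rescaling. Egr1, Btg2 and Klf6 were lower than WT, by -0.36, -0.36 and -0.27. Atf3 stayed higher, at 4.61 and 4.69 FPKM against 2.23 and 2.45, a log2 change of 0.76 ± 0.11 (limma SE, adjusted p = 4.1e-06). Ier3 was higher by 0.51, and Junb and Ier2 by 0.54 and 0.48, beside a shift of all chromosome 8 genes of 0.39.

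Other early response genes were counted from a list of 26, of which 23 were tested. At day 0 in the fusion without Dex against KO, 10 were higher and 5 lower, beside 19.3% and 29.8% of all genes. Ccn1, a secreted matrix protein and target of serum response factor and YAP, rose from 10.12 to 27.43 FPKM in group means, a log2 change of 1.36. Its relative Ccn2 rose by 0.91 and the AP-1 gene Jund by 0.59, while Klf10, a TGF-beta induced zinc finger gene, fell by 0.75. At day 2 in KO against WT, 14 were higher and 2 lower, beside 37.5% and 21.3% of all genes. They were led by the AP-1 genes Fosl2 (1.30) and Jund (1.24), the latter also on chromosome 8, the small Maf gene Maff (1.00) and Egr4 (0.98). With against without Dex at day 6, 15 were higher and 2 lower, beside 23.8% and 19.0% of all genes. Gadd45b, a stress and growth arrest gene, rose from 2.94 to 10.76 FPKM, a log2 change of 1.58, followed by the mRNA decay factor gene Zfp36l2 (1.34), Ccn1 (1.09) and Ier5l (0.86). The median log2 changes of the 23 were 0.12, 0.28 and 0.40 in these 3 comparisons, against -0.03, 0.09 and 0.01 over all genes.

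Lists tied to the signals that induce early genes were counted in the same comparisons, and their counts are to be read beside the shares of all genes called. The ERK feedback genes (10), which rise with growth factor signalling, had 1 higher and 6 lower in the fusion without Dex against KO at day 0, where 19.3% of all genes were called higher and 29.8% lower. Spry4 fell by 0.38, Etv5 by 0.37 and Dusp6 by 0.35, and Dusp4 rose by 0.38. With against without Dex at day 6, 3 were higher and 6 lower (all genes, 23.8% and 19.0%), with Dusp5 higher by 0.86 and Spry2 lower by -0.76. In KO against WT at day 2, 5 were higher and 2 lower (all genes, 37.5% and 21.3%). Dusp4 differed most there and was lower, by -0.91, while Dusp1, itself an early response gene, rose by 0.73. The integrated stress response genes (8) were all higher with Dex at day 6 (all genes, 23.8%), with a median log2 change of 0.80. Trib3 rose by 1.11, Chac1 by 1.00, Atf5 by 0.98 and Ddit3 by 0.84, while Atf3, a gene of the same response, differed by -0.06 and was not called. Against KO at day 0 the fusion without Dex had 3 of these 8 higher and 2 lower (all genes, 19.3% and 29.8%).

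The p53 target genes (8) were mostly lower in KO than in WT at day 0 and mostly higher at days 2 and 4. At day 0 they had 0 higher and 7 lower (all genes, 18.4% and 29.8%), with Bbc3 lower by -0.77, Trp53inp1 by -0.72, Ccng1 by -0.54 and Cdkn1a by -0.34. At days 2 and 4 they had 7 higher and 0 lower (all genes, 37.5% and 21.3%, then 36.5% and 24.0%). Phlda3 rose by 1.11 at day 2, and Mdm2 by 0.61 at day 2 and 0.94 at day 4. At day 6 they had 4 higher and 2 lower (all genes, 30.9% and 34.2%). Btg2, known as a p53 target, differed by -0.55, 1.15, 0.59 and -0.18 over these days, each called. With against without Dex at day 6 the list had 5 higher and 2 lower (all genes, 23.8% and 19.0%), with Phlda3 higher by 1.09, Cdkn1a by 0.86, Bbc3 by 0.66 and Ccng1 by 0.31, while Btg2 was not called. In the fusion without Dex against KO at day 0 it had 3 higher and 5 lower (all genes, 19.3% and 29.8%).

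The glucocorticoid response genes (8) had 6 higher and 0 lower with Dex at day 0 (all genes, 27.3% and 16.1%), where Sgk1 rose by 0.84 and Fkbp5 by 0.42. Days 2 and 4 held changes in both directions. At day 2 Sgk1 differed by 0.30, Errfi1 by -0.28, Klf9 by -0.27 and Zbtb16 by -0.22. At day 4 Tsc22d3 differed by 0.55, Sgk1 by 0.49, Zbtb16 by 0.42 and Errfi1 by -0.32. At day 6, where 8 of the 10 early genes were higher with Dex, 2 were higher and 0 lower (all genes, 23.8% and 19.0%), and Per1 rose by 0.61. The heat shock genes (9) had 3 higher and 4 lower in the fusion without Dex against KO at day 0 (all genes, 19.3% and 29.8%), and 4 higher and 2 lower with Dex at day 6 (all genes, 23.8% and 19.0%).

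**Figure D3:**
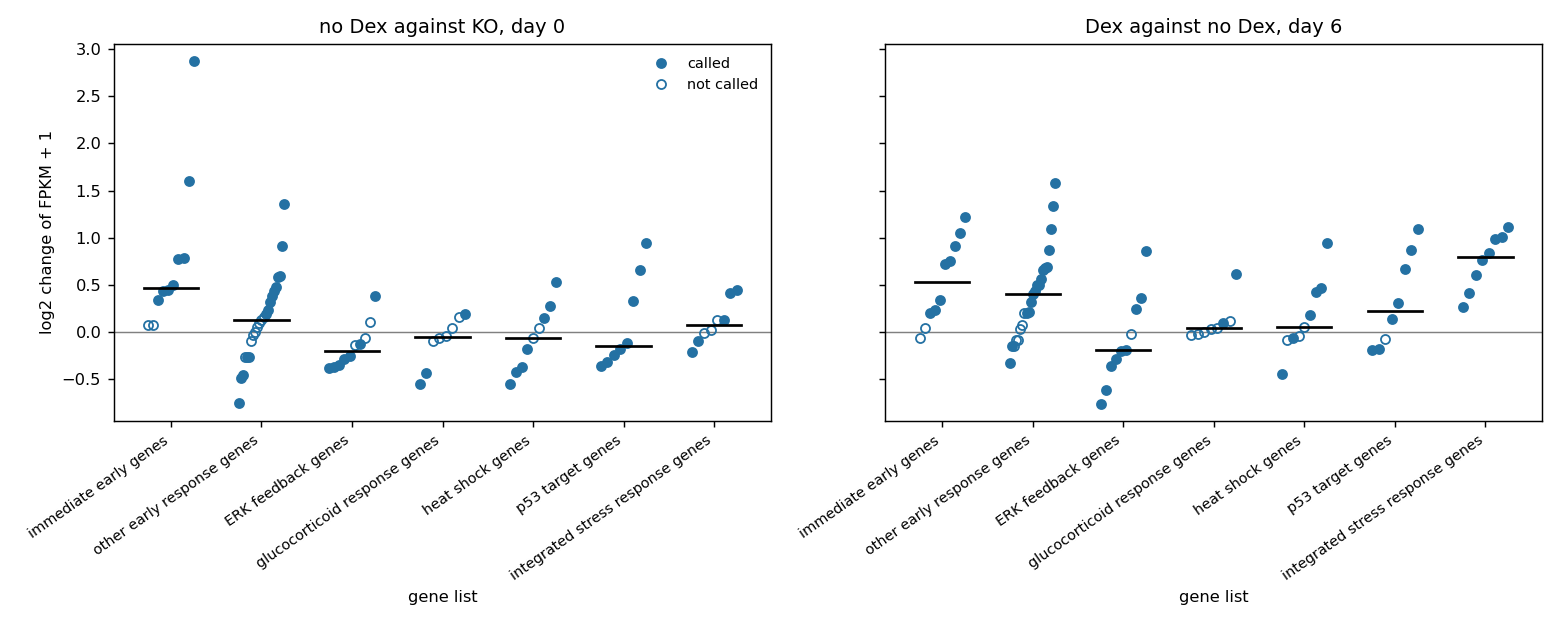
Log2 change of log2(FPKM + 1) (y axis) of each tested gene of each list (x axis) in the fusion without Dex against KO at day 0 (left) and with against without Dex at day 6 (right). Filled points were called at a limma adjusted p under 0.05, open points were not, and bars are list medians. The immediate early genes have 8 called higher and 0 lower in both, and the ERK feedback genes have more lower than higher in both.

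Across the 16 group means the 10 genes did not form a single pattern. These are Pearson correlations of log2(FPKM + 1) over groups that share lines and days, given as a description. Junb and Ier2, both on chromosome 8, went together most closely (r = 0.94), followed by Jun with Atf3 and Ier3 with Btg2 (both r = 0.80), Fos with Egr1 (r = 0.78) and Fos with Fosb (r = 0.77). Ier2 and Atf3 ran in opposite directions (r = -0.84), as did Junb and Atf3 (r = -0.81). Outside the list, closest genes were picked as the highest r of 11567 candidates over only 16 group means, and no link was tested. The gene closest to the mean of the standardised members was Bbc3, a proapoptotic BH3-only gene, at r = 0.79. Ier3 was closest to Anxa2 (r = 0.97), Adm (r = 0.96) and Egln3 (r = 0.95). Adm encodes the peptide adrenomedullin and Egln3 a prolyl hydroxylase. Jun was closest to Evl, Clu and Lmo4 (all r = 0.95), Junb to Hagh (r = 0.97), Ier2 to Cox17 (r = 0.97), Atf3 to Zfp821 (r = 0.98) and Klf6 to Ptpn2 (r = 0.93). For Fos and Egr1 the closest genes reached only 0.68 (Bbc3) and 0.76 (Gm50139).

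Duplicates were close for most members. The median absolute difference between the 2 libraries of a group, on the log2(FPKM + 1) scale, ran from 0.03 for Jun, Ier2 and Klf6 to 0.09 for Fos and Atf3. Genes of like level (within 0.5 on the log2 scale) had medians between 0.03 and 0.10, and Junb and Ier3 were above the median of theirs while the other 8 were below it. The largest single differences were 0.44 for Atf3 in the fusion without Dex at day 4, 0.40 for Junb in WT at day 0 and 0.30 for Fos in WT at day 0.

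**Figure D4:**
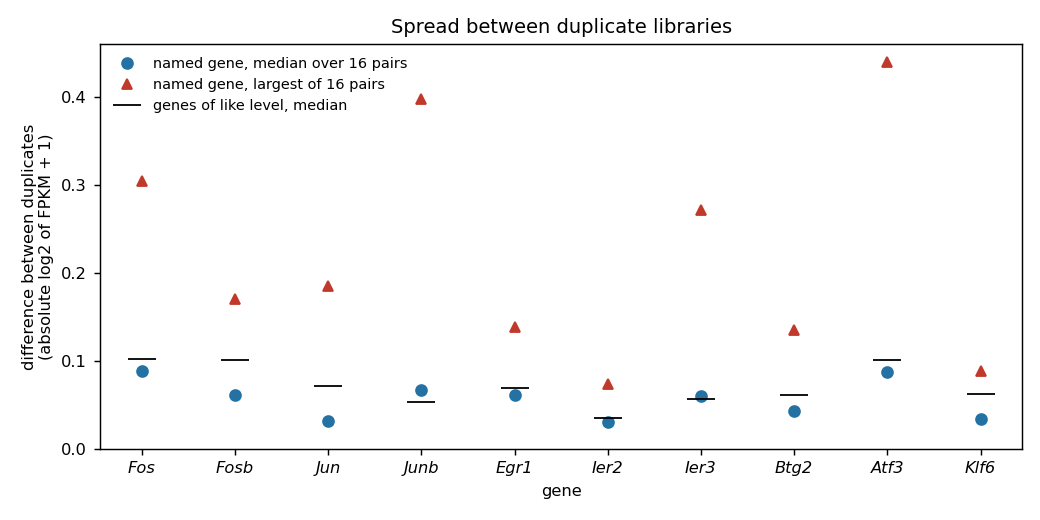
Absolute difference between the 2 libraries of a group in log2(FPKM + 1) (y axis) for each gene, as the median and the largest over 16 groups, beside the median for genes of like level. The medians lie between 0.03 and 0.09, and the largest difference is 0.44 for Atf3.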

How the data were processed

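Polyadenylated RNA was sequenced paired-end from 32 libraries, 2 in each of 16 groups of line and day. The authors deposited 1 table of FPKM per gene, rounded to 2 decimals, for 55492 rows, of which 21161 were 0 in every library. The submitters' processing notes name STAR, Cuffdiff and the mm10 build, with no versions or settings. Counting strand is not given in the sources used here.

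Samples were grouped by their labels. Rows were matched by Ensembl ID to GENCODE M21, with 99.5% found. Depth was estimated from the steps of low FPKM values on transcripts of 400 to 1000 bases, after subtracting a fitted offset from the length. The share of those values within 0.2 of an integer number of fragments was 86.7% to 90.2% (40% for random values). Depth ran from 26.72 to 51.88 M (mega) fragments, median 36.21. Since FPKM steps depend on gene length, no count test was run, and fragment numbers are estimates that cover counting error only.

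Tests used limma 3.58.1 in R 4.3.3 on log2(FPKM + 1), for 16276 genes with at least 2 libraries at 1 FPKM or more, in 1 fit of 16 group means with 16 residual degrees of freedom, eBayes with trend and Benjamini-Hochberg adjustment, two-sided. The code was tested on simulated data. Duplicates share only a number: over all tested genes the differences between duplicates correlated between -0.09 and 0.13 over 120 pairs of groups. Over the 10 members alone these correlations ran from -0.94 to 0.84, with a median of -0.01. Promoter entries of RefSeq (GRCm38.p6) were searched in the 250 bases before the start. Named genes were the 10 members, up to 4 genes of largest change per list and comparison, and the genes of most similar pattern (group mean of at least 5 FPKM). Alternatives were a pseudocount of 0.1, no filter, a mean of at least 5 FPKM, median-of-ratios rescaling, the compared groups alone, a replicate block, a log2 change of at least 1, and leaving out each library. The members, lists and tests were chosen with earlier results of these data known.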

Additional observations from a re-analysis of the deposited data

Results flagged for a closer look

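Each value here is a difference between the day 6 and the day 0 contrast, on the log2(FPKM + 1) scale, past an adjusted p of 0.05 in limma. Each contrast rests on 2 libraries against 2. For KO against WT, Atf3 differed most, by 1.27 ± 0.15 (limma SE, adjusted p = 6.05e-07), from -0.17 at day 0 to 1.09 at day 6. Junb differed by 0.76 (from -0.02 to 0.74) and Btg2 by 0.37 (from -0.55 to -0.18). Jun differed by -0.82 ± 0.08 (limma SE, adjusted p = 8.89e-08), from -0.32 to -1.14. Klf6 differed by -0.67, Ier3 by -0.59, Egr1 by -0.53 and Ier2 by -0.12. Egr1 was higher in KO at day 0 (0.29) and lower at day 6 (-0.24). Junb and Ier2 lie on chromosome 8, whose genes differed from the rest by 0.33 in this contrast.

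For Dex against no Dex, Ier3 differed by 0.90 ± 0.12 (limma SE, adjusted p = 6.15e-06), Egr1 by 0.89 ± 0.07 (limma SE, adjusted p = 1.14e-08) and Jun by 0.83 ± 0.08 (limma SE, adjusted p = 1.46e-07). Fos differed by 0.64, Junb by 0.45 and Ier2 by 0.32, the last from -0.13 at day 0 to 0.19 at day 6. Klf6 differed by -0.15, from 0.38 to 0.23.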

How the results depend on the processing

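Counts of called genes stayed within 1.5 times under the pseudocount of 0.1, no filter, rescaling and the replicate block. The replicate numbers do not pair libraries, and the block changed 2 single calls: Fosb with against without Dex at day 4 (0.17) and Egr1 in WT between days 4 and 6 (-0.12) became called. The compared groups alone, with fewer degrees of freedom, left 2 calls in KO against WT at day 0, 5 for the fusion without Dex against KO at day 4, and 4 for the Dex contrast (fusion with against without Dex) at day 0. The share of all genes called in these fits is not given here, so these counts do not show if other genes lost calls alike. A mean of at least 5 FPKM took Fos, Fosb and Atf3 out of the test, and 5 calls were left for the fusion with Dex against WT at day 4. Calls of the members still tested did not change under this setting. Requiring a log2 change of at least 1 left, in day order (0, 2, 4, 6), 0, 4, 0 and 2 genes in KO against WT. Of all tested genes it left 1.37%, 4.72%, 5.54% and 10% there. For the fusion without Dex against KO it left 2, 0, 0 and 1 (all genes, 1.36%, 0.295%, 0.233% and 2.03%). It left 0, 0, 0 and 2 in the Dex contrast (all genes, 0.498%, 0.467%, 0.915% and 1.52%). For the fusion with Dex against WT it left 2, 1, 0 and 0 (all genes, 1.7%, 0.977%, 2.01% and 5.9%). Over time it left 4 (days 0 to 2), 3 (2 to 4), 0 (4 to 6) and 7 (0 to 6) in WT (all genes, 11%, 8.05%, 10% and 28.1%). In KO it left 7 (0 to 2), 2 (2 to 4), 3 (4 to 6) and 5 (0 to 6) (all genes, 12.6%, 8.46%, 11.1% and 31.9%). In the fusion without Dex it left 4 (0 to 2), 0 (2 to 4), 3 (4 to 6) and 6 (0 to 6). Of all tested genes it left about 9% to 12% there in the shorter steps and 34% from 0 to 6. With Dex it left 4, 2, 0 and 6 for the same steps. Of all tested genes it left about 11% in each shorter step with Dex and 32% from 0 to 6. Leaving out 1 library, the count in the Dex contrast ran from 4 to 7 at day 0 and from 3 to 5 at day 4. Rescaling reversed 6 uncalled values: Junb in KO against WT at day 0 (0.0041), Junb in WT between days 2 and 4 (-0.043), Ier3 with Dex between days 2 and 4 (-0.11), and, in the Dex contrast, Ier2 (0.087) and Atf3 (0.054) at day 2 and Btg2 (0.0048) at day 4. The Klf6 difference between the day 6 and day 0 Dex contrasts was no longer called after rescaling (-0.086). The cause was not tested.

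Leaving out 1 library turned 18 uncalled values. In KO against WT the ranges were -0.22 to 0.18 for Junb at day 0, -0.094 to 0.036 for Atf3 at day 2 and -0.00032 to 0.13 for Fosb at day 6. For the fusion without Dex against KO they were -0.00049 to 0.15 for Atf3 at day 0 and -0.030 to 0.065 for Fosb at day 2. In the Dex contrast they were -0.069 to 0.053 for Atf3 and -0.057 to 0.0013 for Ier2 at day 2, then -0.039 to 0.40 for Atf3 and -0.039 to 0.011 for Btg2 at day 4. For the fusion with Dex against WT at day 6 they were -0.040 to 0.051 for Fos and -0.026 to 0.10 for Fosb. Between days 2 and 4 they were -0.033 to 0.097 for Junb in WT, -0.0050 to 0.086 for Fos without Dex and -0.12 to 0.086 for Fos with Dex. Between days 4 and 6 they were -0.076 to 0.020 for Atf3 in WT, -0.014 to 0.032 for Ier2 and -0.060 to 0.051 for Fosb in KO, and -0.036 to 0.033 for Egr1 with Dex. Depth limits Fosb most, at 3.7 estimated fragments in its lowest library.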
